A study of Mus musculus with 8 samples.

Results

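Pomc, Pcsk1n, Scg5, Scg2 and Chgb encode a prohormone, a pair of small proteins that act on the enzymes which cut it, and a pair of granins of the granules that store it. They were chosen by gene symbol, each symbol matched 1 locus, and the 5 genes stand among 12193 loci with values. All 5 passed the filter on low expression.

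Corticotropes of the anterior pituitary make pro-opiomelanocortin, the product of Pomc, and release the peptides cut from it through the regulated secretory pathway. Prohormone convertase 1 (Pcsk1) cuts the precursor in immature granules to give ACTH and beta-lipotropin, and convertase 2 (Pcsk2) cuts further. Granins are acidic proteins that aggregate with calcium in the trans-Golgi network and are packed with hormones into dense-core granules, and several are themselves cut into peptides.

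RNA was sequenced from the mouse corticotrope tumour line AtT-20, grown in DMEM with 10% fetal bovine serum and antibiotics. The groups were a line carrying EGFR given water, the same line given EGF for 3 h, the same line given EGF for 18 h, and a control line carrying Neo given water, with n = 2 libraries each. The study asks how the EGF receptor acts on transcription in these cells, and its title names POMC and STAT3. Both water groups are labelled 3 h, so time in culture and EGF cannot be told apart at 18 h, and no Neo library received EGF. The labels give neither the dose of EGF, nor the species of the introduced receptor, nor whether a line is 1 clone or a pool. Nothing states that the replicates came from separate cultures, so each p-value reflects the spread of these libraries alone, which may be technical.

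Values are FPKM, fragments scaled by transcript length and by the mapped total of the library, as the authors deposited them. FPKM is per length, so levels can be compared between genes. Depth is not given, and the steps between low values gave a rough estimate of 53.1 to 63.5 M fragments per library. Median FPKM was 14.3 to 14.7 in the 8 libraries, and replicates of a group correlated across genes at r = 0.985 to 0.987. Egfr was 26.7 ± 1.13 FPKM in the EGFR line given water and 0.147 ± 0.114 FPKM in the Neo line (SD, n = 2 each). Of 7 corticotrope markers 5 had values (Pomc, Tbx19, Neurod1, Pitx1 and Pcsk1), while Crhr1 and Avpr1b had none. None of the 8 fibroblast, 6 endothelial or 8 blood markers had a value. The rule that chose the loci is not given, so a gene without a value may still be expressed. Of 14 markers of other pituitary lineages Gata2 and Sox2 had values, with a summed level of 14.7 to 15.9 FPKM in the EGFR line given water, 15.0 to 16.6 at 3 h of EGF, 12.6 to 12.9 at 18 h and 18.0 to 18.3 in the Neo line. Their part in the results below was not tested.

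Every fold change below is a difference of log2(FPKM + 1) values, a scale that understates changes of weakly expressed genes, and was tested with limma over 10874 genes with Benjamini-Hochberg adjustment and a threshold of 0.05. At 18 h of EGF against water Scg2 and Chgb rose and Scg5 fell. Of all genes tested in that comparison 13.2% rose and 18.7% fell, 31.9% in all. At 3 h of EGF against water Scg5 fell and the other 4 genes did not pass, against 19.7% of all genes that fell, 11.8% that rose and 31.5% called in all. At 18 h against 3 h of EGF Scg2, Chgb and Pcsk1n were higher, against 17.7% of all genes that were higher, 16.0% that were lower and 33.7% called in all. In water, Pcsk1n was lower in the EGFR line than in the Neo line and none of the 5 was higher, against 2.90% of all genes that were lower, 3.11% that were higher and 6.01% called in all. The median log2 fold change of the 5 genes was 0.05 at 18 h and -0.08 at 3 h against water, where the medians of all tested genes were -0.03 and -0.04. It was 0.14 at 18 h against 3 h and -0.12 for the EGFR line against the Neo line, where the medians of all tested genes were both 0.01. The balance of calls over all genes depends on scaling: 37.5% of the calls were increases at 3 h, against 53.0% with median-ratio scaling and 75.4% with libraries scaled to a common sum. The same shares at 18 h against water were 41.4%, 53.6% and 62.8%. Between 18 h and 3 h the share was 52.5%, against 39.3% with a common sum, and for the EGFR line against the Neo line it was 51.8%, against 75.0% with a common sum. The 3 h and 18 h comparisons share the same water libraries, and in bulk RNA fewer cells of a type and less RNA per cell cannot be told apart.

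**Figure D1:**
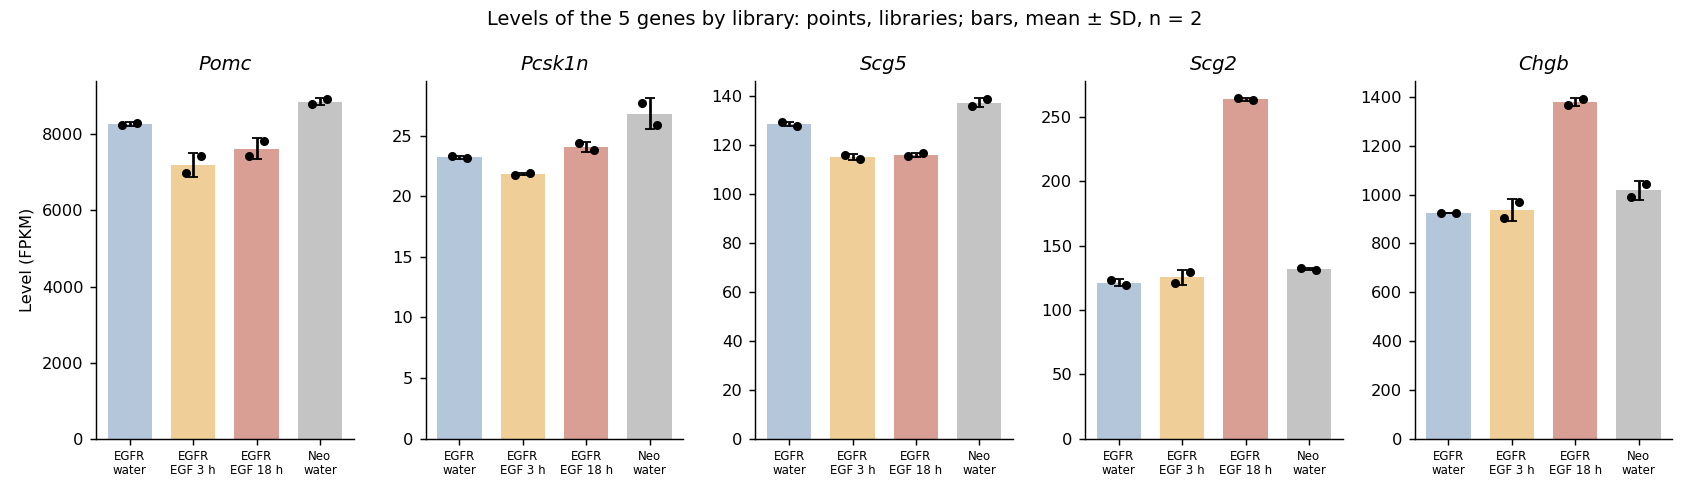
FPKM of each gene (y axis, from 0, a panel per gene) in every library, in the groups EGFR water, EGFR with EGF 3 h, EGFR with EGF 18 h and Neo water. Points are libraries, bars are means and whiskers are SD (n = 2). Scg2 and Chgb stand above all other groups at 18 h of EGF, and the Pomc points of both EGF groups lie below those in water, which did not pass the test.

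The promoters of the granins and of Pomc are shown because Scg2 and Chgb rose together and Pomc did not. Each line gives the 250 bases before the start site in RefSeq on GRCm38.p6, from 5′ to 3′ on the strand of the gene, and capitals mark the cAMP response element TGACGTCA. The 5 genes all matched the RefSeq table. The windows are chr1:79440027-79440276, minus strand, for Scg2, chr2:132781392-132781641, plus strand, for Chgb and chr12:3954695-3954944, plus strand, for Pomc. The RefSeq start sites of Scg2 and Chgb lie inside the loci used for expression. So do the whole Chgb window and the part of the Scg2 window that holds TGACGTCA. In both genes these letters are thus before the RefSeq start site but after the start of the locus. Which start the cells use was not tested.
Scg2: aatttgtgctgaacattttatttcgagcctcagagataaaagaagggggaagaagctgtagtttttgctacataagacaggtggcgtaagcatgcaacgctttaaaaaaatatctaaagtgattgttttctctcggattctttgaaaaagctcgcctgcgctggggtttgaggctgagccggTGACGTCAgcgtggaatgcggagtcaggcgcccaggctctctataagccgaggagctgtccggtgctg
Chgb: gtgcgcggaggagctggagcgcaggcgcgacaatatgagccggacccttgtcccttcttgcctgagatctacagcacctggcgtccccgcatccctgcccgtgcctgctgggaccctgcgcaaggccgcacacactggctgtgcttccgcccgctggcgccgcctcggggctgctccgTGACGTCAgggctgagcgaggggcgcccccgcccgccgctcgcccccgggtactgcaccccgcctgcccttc
Pomc: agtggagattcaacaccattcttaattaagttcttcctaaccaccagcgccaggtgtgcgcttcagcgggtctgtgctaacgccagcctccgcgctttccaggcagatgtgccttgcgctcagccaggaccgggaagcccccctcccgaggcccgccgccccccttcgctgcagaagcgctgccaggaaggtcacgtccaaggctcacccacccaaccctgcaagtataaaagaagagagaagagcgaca
TGACGTCA, which is its own reverse complement, was present once in Scg2, 68 bases before the start site as counted from the first letter of the match, and once in Chgb, 72 bases before it. It was absent from the windows of Pomc, Pcsk1n and Scg5. Of 32851 RefSeq mouse promoters 1.55% held these letters in a window of the same length, and of 9102 promoters of the genes tested here 2.88% did. The shorter TGACG, which TGACGTCA contains on both strands and which was searched on both strands, was found in 17.8% of all promoters, in 28.7% of those of tested genes and, outside the full element, once among the 5 genes, in Scg5. The STAT-type letters TTCNNNGAA, also their own reverse complement, occurred at 2 places in Scg5, at 55 and 46 bases, once in Scg2, at 113 bases, and in none of the other 3 windows, against 7.02% of all promoters and 5.53% of those of tested genes. AAAGGTCA, the NBRE bound by NR4A receptors, was searched on both strands and found in none of the 5 windows and in 1.34% of all promoters and 0.725% of those of tested genes. Only exact letters were searched. The Pomc window holds gaaggtca, which differs from AAAGGTCA in its first letter alone, so a variant site is not excluded. TATAAAA, searched on both strands, lay 25 bases before the start site of Pomc and was found in 4.98% of all promoters and 1.87% of those of tested genes. A match of letters is a description and not a bound site.

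Pomc (ENSMUSG00000020660, mm10 chromosome 12, 3954951 to 3960618, plus strand) encodes the ACTH precursor. It was the protein-coding gene with the highest FPKM in all 8 libraries and took 1.67 to 2.05% of all protein-coding FPKM. Its level was 8240.3 and 8307 FPKM in the EGFR line given water, 6981 and 7430.2 FPKM at 3 h of EGF, 7429 and 7827 FPKM at 18 h, and 8798 and 8929.5 FPKM in the Neo line. Both EGF groups lay below both water libraries of the EGFR line and overlapped each other, and the Neo libraries were the highest. No comparison of Pomc passed the test. At 3 h against water the log2 fold change was -0.20 (95% interval -0.35 to -0.05, limma adjusted p = 0.0531), with means of 7206 ± 318 FPKM with EGF and 8274 ± 47.4 FPKM with water (SD, n = 2 each). This value lay close to the threshold and passed it in 5 of 16 alternatives, with adjusted p of 0.0102 to 0.358, among them the fit without the second 3 h library (-0.25, limma adjusted p = 0.0342) and that with protein-coding genes only (limma adjusted p = 0.0102). At 18 h against water it was -0.12 (95% interval -0.27 to 0.04, limma adjusted p = 0.207). Between 18 h and 3 h it was 0.08 (95% interval -0.07 to 0.24, limma adjusted p = 0.364). The EGFR line in water differed from the Neo line by -0.10 (95% interval -0.25 to 0.05, limma adjusted p = 0.382). In none of the 16 alternatives was the Pomc estimate at 3 h or at 18 h of EGF above that in water.

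Pcsk1n (ENSMUSG00000039278, mm10 chromosome X, 7919822 to 7924410, plus strand) encodes proSAAS, a granin-like inhibitor of convertase 1. It had the lowest level of the 5 genes, at 23.3 and 23.1 FPKM in the EGFR line given water, 21.8 and 21.9 FPKM at 3 h of EGF, 24.4 and 23.8 FPKM at 18 h, and 27.7 and 25.9 FPKM in the Neo line. None of these 4 pairs overlapped another: the order was 3 h of EGF, EGFR water, 18 h of EGF and Neo water, from low to high. In water Pcsk1n was lower in the EGFR line than in the Neo line by a log2 fold change of -0.20 (SE 0.04, limma adjusted p = 0.0322), at 23.2 ± 0.117 FPKM in the EGFR line and 26.8 ± 1.29 FPKM in the Neo line (SD, n = 2 each). That call was lost in 7 of 16 alternatives, whose adjusted p ran from 0.0149 to 0.167: without either EGFR water library, without Neo library 1, without either 18 h library, with only both groups fitted, and with a common sum. At 18 h it was higher than at 3 h of EGF by 0.14 (SE 0.04, limma adjusted p = 0.0332), and this call too was lost in 7 of 16 alternatives, with adjusted p of 0.0203 to 0.209. These were the fits without any 1 of the 6 libraries of the EGFR line, at 0.0596 to 0.156, and the common sum. Against water, the log2 fold change was -0.08 at 3 h (95% interval -0.17 to 0.01, limma adjusted p = 0.138) and 0.05 at 18 h (95% interval -0.04 to 0.14, limma adjusted p = 0.342). An antisense gene, Eras, overlaps 6.16% of the exon bases of Pcsk1n, and since strandedness is not given, reads of both cannot be told apart there.

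Scg5 (ENSMUSG00000023236, mm10 chromosome 2, 113776362 to 113829121, minus strand) encodes 7B2, a chaperone and inhibitor of convertase 2. Its level was 129 and 128 FPKM in the EGFR line given water, 116 and 114 FPKM at 3 h of EGF, 115 and 116 FPKM at 18 h, and 136 and 138 FPKM in the Neo line. All 4 EGF libraries lay below all 4 water libraries, and the EGF groups overlapped each other. Scg5 fell at 3 h by a log2 fold change of -0.16 (SE 0.03, limma adjusted p = 0.00739), at 115 ± 1.08 FPKM with EGF and 128 ± 0.935 FPKM with water (SD, n = 2 each). At 18 h it fell by -0.15 (SE 0.03, limma adjusted p = 0.00819), at 116 ± 0.774 FPKM with EGF. Over 16 alternatives the adjusted p ran from 0.00325 to 0.454 at 3 h and from 0.00421 to 0.266 at 18 h. Both calls were lost with a common sum (-0.08 at 3 h and -0.11 at 18 h) and without EGFR water library 1 (adjusted p of 0.0604 and 0.0693), and the 18 h call also without 18 h library 1 (0.0610). Between 18 h and 3 h the difference was 0.01 (95% interval -0.06 to 0.08, limma adjusted p = 0.801). Scg5 was at -0.09 in the EGFR line against the Neo line (95% interval -0.16 to -0.03, limma adjusted p = 0.0998), and its groups did not overlap.

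Scg2 (ENSMUSG00000050711, mm10 chromosome 1, 79434669 to 79440120, minus strand) encodes secretogranin II, the precursor of secretoneurin. Its level was 123 and 119 FPKM in the EGFR line given water, 121 and 129.7 FPKM at 3 h of EGF, 265 and 263 FPKM at 18 h, and 132 and 131 FPKM in the Neo line. The 18 h libraries lay well above the other 6, and the 3 h libraries overlapped those in water. Scg2 rose at 18 h by a log2 fold change of 1.11 (SE 0.04, 95% interval 1.02 to 1.21, limma adjusted p = 4.73e-06), at 264 ± 1.06 FPKM with EGF and 121 ± 2.83 FPKM with water (SD, n = 2 each). That is the 69th largest of 10874 log2 fold changes. At 3 h the difference from water was 0.05 (95% interval -0.04 to 0.14, limma adjusted p = 0.379). The difference between 18 h and 3 h, 1.07 (SE 0.04, limma adjusted p = 1.66e-05), was the 31st largest of that comparison. The 18 h calls of Scg2 against water and against 3 h held in all 16 alternatives. In water the EGFR line was at -0.12 against the Neo line (95% interval -0.21 to -0.03, limma adjusted p = 0.117), and with median-ratio scaling this passed (-0.14, limma adjusted p = 0.0416, against 0.0591 to 0.728 in the other 15 alternatives).

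Chgb (ENSMUSG00000027350, mm10 chromosome 2, 132781278 to 132795079, plus strand) encodes chromogranin B, a main matrix protein of dense-core granules. Its level was 923 in both libraries of the EGFR line given water, 904 and 969 FPKM at 3 h of EGF, 1367 and 1391 FPKM at 18 h, and 991 and 1044 FPKM in the Neo line. As for Scg2, the 18 h libraries were above the other 6, while the 3 h libraries lay on both sides of the water libraries. Chgb rose at 18 h by a log2 fold change of 0.58 (SE 0.05, 95% interval 0.47 to 0.69, limma adjusted p = 0.000198), at 1379 ± 17.0 FPKM with EGF and 923 ± 0.24 FPKM with water (SD, n = 2 each). It was the 253rd largest log2 fold change of 10874. At 3 h against water it was 0.02 (95% interval -0.09 to 0.13, limma adjusted p = 0.768). The difference of 0.56 between 18 h and 3 h (SE 0.05, limma adjusted p = 0.000494) and the 18 h rise against water both passed in all 16 alternatives. In water the EGFR line was at -0.14 against the Neo line (95% interval -0.25 to -0.03, limma adjusted p = 0.131). For all 5 genes both EGFR water libraries lay below both Neo water libraries, as they did for 24.2% of all genes tested, and 1 of the 5, Pcsk1n, passed the test. Transcripts of the 5 genes had 0 near-identical copies at other genes.

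**Figure D2:**
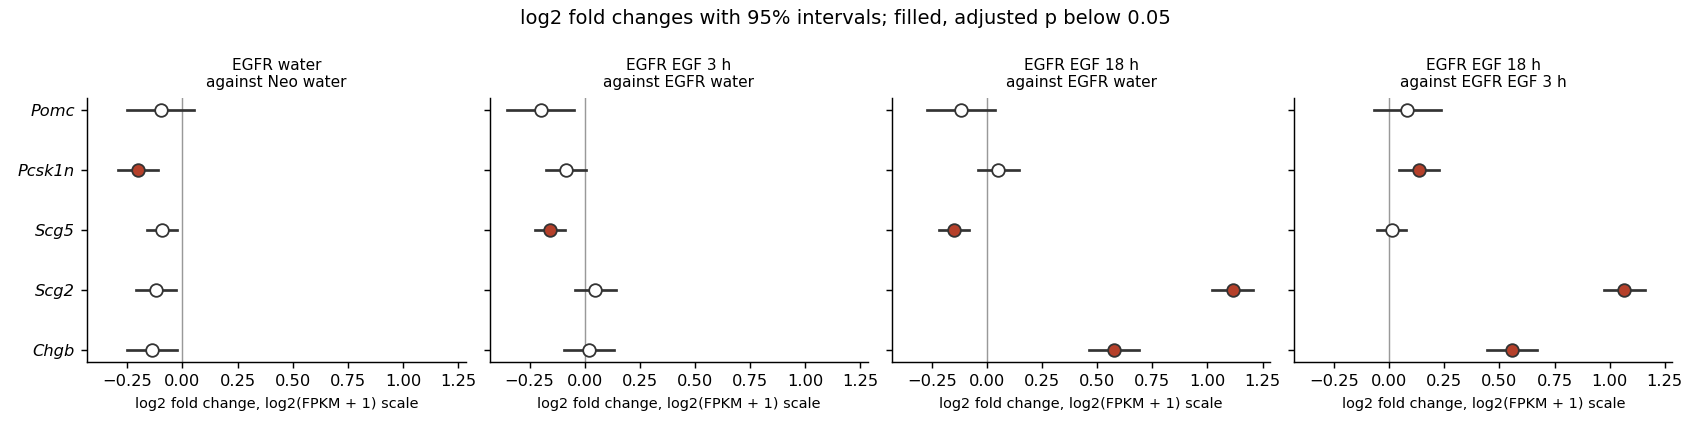
log2 fold changes on the log2(FPKM + 1) scale (x axis) of the 5 genes in the 4 comparisons, with limma 95% intervals and filled points for adjusted p below 0.05. Scg2 at 1.11 and Chgb at 0.58 stand apart at 18 h against water, and again at 18 h against 3 h, while all other estimates lie between -0.20 and 0.14.

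By level, Pomc was first, Chgb second and Pcsk1n last in every library, with Scg5 and Scg2 between Chgb and Pcsk1n. Scg5 was above Scg2 in all 4 water libraries, and Scg2 was above Scg5 in all 4 EGF libraries, with 265 and 263 FPKM for Scg2 and 115 and 116 FPKM for Scg5 at 18 h. At 3 h the lower Scg2 library was at 121 FPKM and the higher Scg5 library at 116 FPKM, so these neighbours differed little but did not overlap. Among protein-coding genes Chgb ranked 27th by mean FPKM in the EGFR line given water, 23rd at 3 h of EGF, 9th at 18 h and 24th in the Neo line. Scg2 ranked 678th, 620th, 262nd and 593rd in the same groups.

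A ratio of 2 genes within a library does not depend on how the library was scaled. Scg2 per 1000 FPKM of Pomc was 15.0 and 14.4 in the EGFR line given water, 17.4 and 17.5 at 3 h of EGF, 35.6 and 33.6 at 18 h, and 15.1 and 14.7 in the Neo line. The Neo and EGFR water libraries overlapped, and both EGF groups were above them and apart from each other. Chgb per 1000 FPKM of Pomc was 112 and 111 in the EGFR line given water, 129.5 and 130.4 at 3 h, 184 and 178 at 18 h, and 113 and 117 in the Neo line. The log2 ratio of Scg2 to Pomc was higher than in water by 0.25 at 3 h and by 1.24 at 18 h, and that of Chgb to Pomc by 0.22 and 0.70. At 3 h none of these genes passed its own test against water, with log2 fold changes of -0.20 for Pomc, 0.05 for Scg2 and 0.02 for Chgb. Pcsk1n per 1000 FPKM of Pomc was 2.78 to 2.83 in the EGFR line given water, 2.95 to 3.12 at 3 h, 3.04 to 3.28 at 18 h, and 2.90 to 3.15 in the Neo line. Its EGF groups overlapped each other and the Neo line. Both lay above EGFR water, with log2 ratios higher by 0.11 at 3 h and 0.17 at 18 h. Scg5 per 1000 FPKM of Pomc was 15.4 to 15.7 in the EGFR line given water, 15.4 to 16.6 at 3 h, 14.9 to 15.5 at 18 h, and 15.4 to 15.5 in the Neo line, and each EGF group overlapped water. Scg2 as a share of Chgb was 12.6 to 13.4% in the 6 libraries other than 18 h and 19.4% and 18.9% at 18 h. With 2 libraries a group an exact two-sided permutation test cannot give a p below 0.333, so these ratios carry no test.

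**Figure D3:**
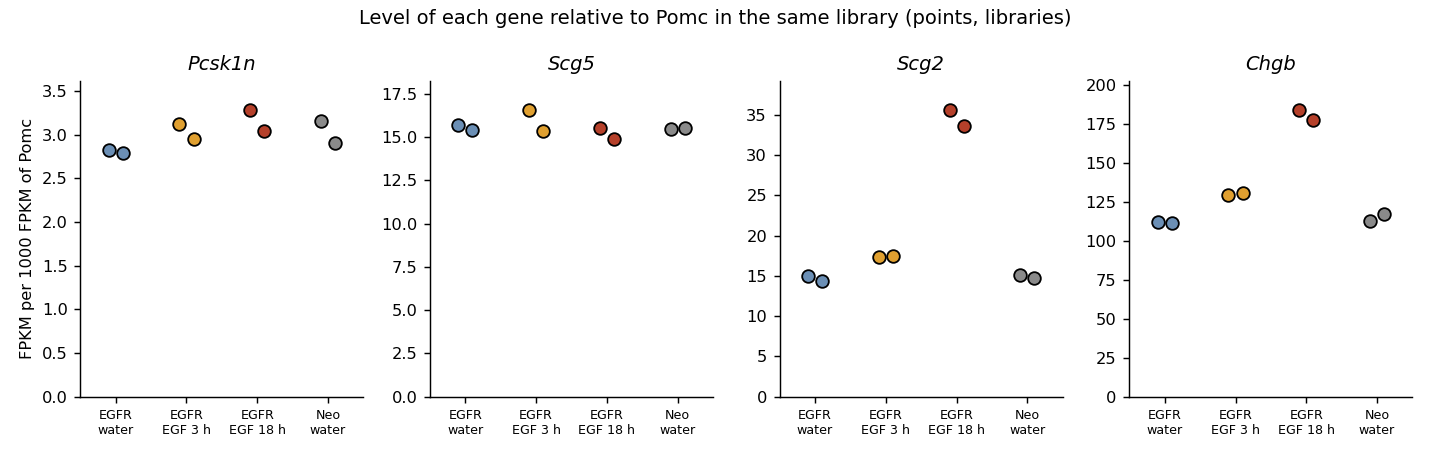
FPKM of Scg2, Chgb, Scg5 and Pcsk1n per 1000 FPKM of Pomc in the same library (y axis, from 0, a panel per gene), by group. Points are libraries (n = 2 a group). The ratios of Scg2 and Chgb are higher at 3 h than in water and higher again at 18 h. Those of Pcsk1n lie above EGFR water at both times but overlap Neo water. Those of Scg5 overlap between each EGF group and water.

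Processing enzymes and helpers were followed as a list of 16 genes, of which 11 were tested, Pcsk1n and Scg5 included. Whether each of them, Atrn among them, acts on the Pomc product was not tested. At 18 h against water 3 rose, 1 fell (Scg5) and 7 did not pass, with a median of 0.05, where 13.2% of all genes rose and 18.7% fell. At 3 h 1 rose, 3 fell and 7 did not pass, with a median of -0.04, where 11.8% of all genes rose and 19.7% fell, and at 18 h against 3 h the counts were 6 higher, 0 lower and 5 not passing, with a median of 0.10, where 17.7% of all genes were higher and 16.0% lower. Pcsk1, the convertase that releases ACTH, was at 395 ± 2.05 FPKM in the EGFR line given water, 363 ± 13.5 FPKM at 3 h of EGF and 440.4 ± 3.17 FPKM at 18 h (SD, n = 2 each). It fell at 3 h (log2 fold change -0.12, limma adjusted p = 0.0387) and rose at 18 h (0.16, limma adjusted p = 0.0158) against water. The direction at 3 h was called in 6 of 16 alternatives and that at 18 h in 11. Pam, which amidates peptides, fell at 3 h (-0.18, limma adjusted p = 0.00541, at 72.0 ± 1.25 FPKM with EGF and 81.8 ± 0.349 FPKM with water). At 18 h Pam was at 0.05 (limma adjusted p = 0.208). Cpd, a carboxypeptidase of the trans-Golgi network, rose at 3 h (0.13, limma adjusted p = 0.0386) and at 18 h (0.22, limma adjusted p = 0.00544), and its 3 h call held in 7 of 16 alternatives. Atrn, attractin, rose at 18 h (0.21, limma adjusted p = 0.00743), which 14 of 16 alternatives kept. Cpe, the carboxypeptidase that trims cut peptides, was higher at 18 h than at 3 h (0.23, limma adjusted p = 0.0164, in 12 of 16 alternatives) and passed against water at neither time. In water 0 of the 11 were higher and 1 was lower, Pcsk1n, in the EGFR line against the Neo line. Of all genes 3.11% were higher and 2.90% lower in that comparison. The most abundant of the other listed genes, Cpe and Pcsk1, were at -0.08 and -0.01. These counts were unstable: at 18 h the increases were 1 without EGFR water library 1 or 18 h library 1, 2 with a common sum and 6 with median-ratio scaling. At 3 h the decreases were 1 without EGFR water library 1 and 0 with a common sum, and at 18 h against 3 h the increases were 2 without 18 h library 1, 3 without 18 h library 2 or 3 h library 1, and 2 with a common sum. Pcsk2 and Furin are not analysed here.

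The granin and granule cargo list held 26 genes, of which 10 were tested, and 4 of these 10 are Pcsk1n, Scg5, Scg2 and Chgb. Of the other 6, 4 rose, 0 fell and 2 did not pass at 18 h against water, with a median log2 fold change of 0.26 against -0.03 for all genes tested, of which 13.2% rose and 18.7% fell. Vgf, a secreted granin-like precursor, was at 29.0 ± 0.547 FPKM in the EGFR line given water, 57.3 ± 0.974 FPKM at 3 h of EGF, 93.7 ± 1.87 FPKM at 18 h and 34.8 ± 2.48 FPKM in the Neo line (SD, n = 2 each). It rose at 3 h (0.96, limma adjusted p = 5.08e-05) and at 18 h (1.66, limma adjusted p = 2.15e-06), and both calls held in all 16 alternatives. Unlike Vgf, Scg2 and Chgb did not pass at 3 h; the difference between these genes was not tested. Nucb2, nucleobindin 2, rose at 18 h (0.41, limma adjusted p = 0.000764) and so did Scg3, a granin that binds cholesterol-rich granule membrane (0.34, limma adjusted p = 0.00188), again in all 16 alternatives. Nucb1, nucleobindin 1, fell at 3 h (-0.15, limma adjusted p = 0.0409, kept in 4 of 16 alternatives) and rose at 18 h (0.17, limma adjusted p = 0.0240, kept in 13). Chga, chromogranin A, had the highest level of the list, at 2278 ± 24.5 FPKM at 18 h and 2068 ± 16.6 FPKM in water, with a difference of 0.14 that did not pass (limma adjusted p = 0.0519) but passed in 7 of 16 alternatives, with adjusted p of 0.00937 to 0.229. At 3 h 1 of the 6 rose (Vgf) and 1 fell (Nucb1), with a median of -0.05, where 11.8% of all genes rose and 19.7% fell. At 18 h against 3 h 5 of the 6 were higher and 0 lower, with a median of 0.34, where 17.7% of all genes were higher and 16.0% lower. In the EGFR line against the Neo line in water Vgf was lower (-0.25, limma adjusted p = 0.0316, kept in 7 of 16 alternatives) and the other 5 did not pass. Between these lines 3.11% of all genes were higher and 2.90% lower. With the 4 genes described above included, 6 of 10 rose at 18 h and 5 to 7 did so over the alternatives.

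**Figure D4:**
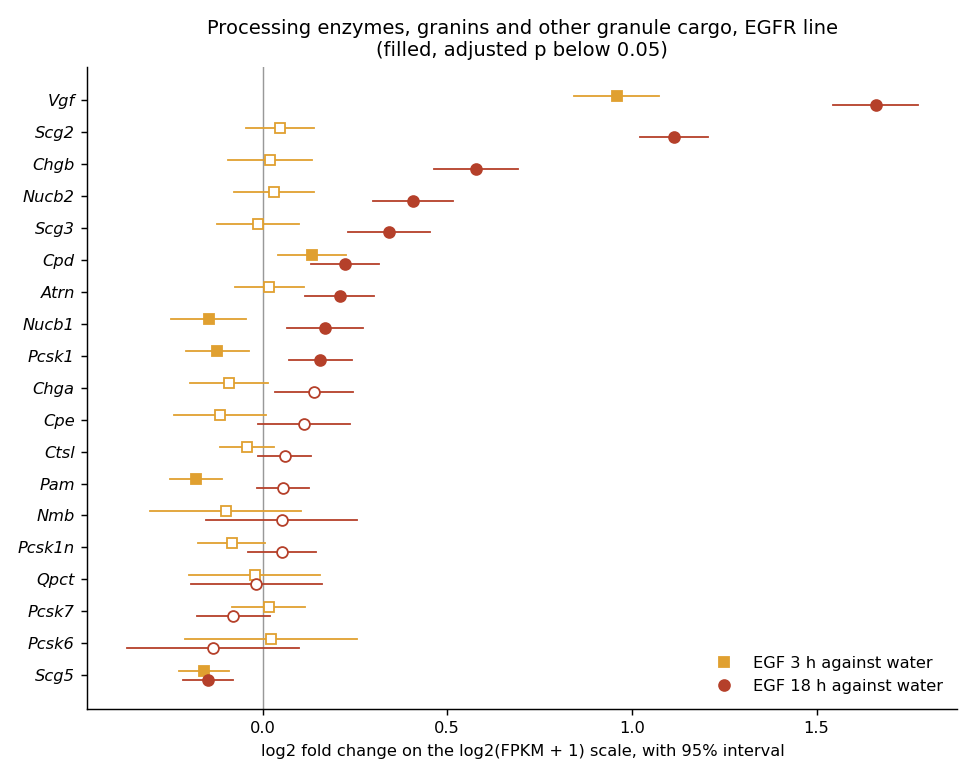
log2 fold changes on the log2(FPKM + 1) scale (x axis) at 3 h and at 18 h of EGF against water for the tested genes of the processing and granin lists, with limma 95% intervals and filled points for adjusted p below 0.05. Vgf is at 0.96 at 3 h and 1.66 at 18 h, Scg2 at 0.05 and 1.11, and Chgb at 0.02 and 0.58.

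Genes of granule biogenesis and exocytosis numbered 51 on the list and 36 among those tested. At 18 h against water 11 rose, 5 fell and 20 did not pass, with a median of 0.04, where 13.2% of all genes rose and 18.7% fell. Without EGFR water library 1 or without 18 h library 1 the increases were 7, and without 18 h library 2 the decreases were 3. Syt4, a synaptotagmin of secretory granules, rose to 96.9 ± 0.468 FPKM at 18 h, against 46.8 ± 0.137 FPKM in water (1.03, limma adjusted p = 3.86e-05). Sytl4, granuphilin, which docks granules at the plasma membrane, fell to 25.1 ± 0.911 FPKM at 18 h, against 52.0 ± 0.289 FPKM in water (-1.02, limma adjusted p = 1.13e-05). Ptprn, a granule membrane protein, rose by 0.49 (limma adjusted p = 0.00178). At 3 h 5 rose and 8 fell, with a median of -0.03, where 11.8% of all genes rose and 19.7% fell. Syt4 was at 0.54 (limma adjusted p = 0.00122) and Pick1, a BAR-domain protein of granule formation, at -0.22 (limma adjusted p = 0.00414). The 8 decreases were 0 with a common sum, 5 with median-ratio scaling, 2 without EGFR water library 1 or 3 h library 1, and 1 without EGFR water library 2. The 5 increases were 2 without EGFR water library 1 and 3 without EGFR water library 2 or 3 h library 2. At 18 h against 3 h 13 were higher and 4 lower, where 17.7% of all genes were higher and 16.0% lower, with increases of 6 with a common sum and 7 without 18 h library 1, and decreases of 2 without 18 h library 2 or 3 h library 1. In water 0 of 36 passed between the EGFR and Neo lines, where 6.01% of all genes were called.

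Regulators and receptors of corticotropes numbered 34 on the list and 23 among those tested. At 18 h 6 rose and 7 fell against water, where 31.9% of all genes were called in either direction, and at 3 h 3 rose and 6 fell, where 31.5% were. In water 1 was higher, Egfr itself, and 3 were lower in the EGFR line than in the Neo line, where 6.01% of all genes were called. Between both EGF times, 2 were higher and 4 lower at 18 h than at 3 h, where 33.7% of all genes were called. The medians were 0.05 in that comparison and within 0.001 of 0 in the other 3. At 18 h the increases were 2 without EGFR water library 2 or without either 18 h library, and 3 without EGFR water library 1 or with a common sum. The 3 genes lower in the EGFR line were 0 without either EGFR water library, without Neo library 1 or with a common sum, and 1 without Neo library 2 or 18 h library 2. The 4 lower at 18 h against 3 h were 2 without either 18 h library or 3 h library 1. Tbx19, the T-box factor that activates Pomc in corticotropes, was at 109.9 ± 3.73 FPKM at 18 h and 84.4 ± 0.823 FPKM at 3 h, a difference of 0.38 (limma adjusted p = 0.00194). Its 18 h libraries, at 112.6 and 107.3 FPKM, also lay above those of the EGFR line given water, at 88.4 and 92.4 FPKM. That rise of Tbx19 against water was called in all 16 alternatives. Nr4a2, an orphan nuclear receptor of the family that binds the NBRE, fell at 3 h (-0.73, limma adjusted p = 0.000425) and at 18 h (-0.54, limma adjusted p = 0.000864). Il6ra, the interleukin 6 receptor, rose at both times (1.22 and 1.29, limma adjusted p = 8.10e-05 and 3.21e-05). Pomc itself passed at neither time.

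Across the 8 libraries Scg2 and Chgb had log2(FPKM + 1) values that correlated at r = 0.984, and Pomc and Scg5 at r = 0.938, while Pomc and Scg2 were at r = -0.26. These libraries share treatments and scaling, so the coefficients describe these 8 libraries and carry no p. Among 8274 protein-coding genes with a mean of at least 5 FPKM the pattern most like Scg2 was that of Aplp2, an amyloid precursor-like protein (r = 0.998), then Tesc, tescalcin (r = 0.997) and Cd151, a tetraspanin (r = 0.995). Aplp2 was at 159 FPKM at 18 h, against 71.9 FPKM in water. The genes most like Chgb were Lgi1, a secreted leucine-rich repeat protein (r = 0.994), Cd151 (r = 0.993) and Ric8a, a chaperone of G protein alpha subunits (r = 0.991). Pomc was most like Zfp282, a zinc finger protein (r = 0.992), Cox7a2l, a respiratory supercomplex factor (r = 0.990), Ascc1 (r = 0.985), Prdx4, a peroxiredoxin of the endoplasmic reticulum (r = 0.981), and Diras1, a small GTPase (r = 0.979). Scg5 was most like Barx2, a homeobox factor (r = 0.991), Fam117b (r = 0.987) and Peo1, the mitochondrial DNA helicase (r = 0.985). Pcsk1n was most like Glb1, lysosomal beta-galactosidase (r = 0.985), Bnip3l, a mitophagy receptor (r = 0.982), and Tmem55b (r = 0.973).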

How the data were processed

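Per the labels' protocols, total RNA was extracted on columns and reverse transcription used Superscript III before Illumina sequencing. Per the submitters' processing notes the build was mm10 and the tools were TopHat2 2.0.8, Trimmomatic 0.22, DESeq and HTSeq 0.5.4, in no stated order. The values are FPKM for 12193 loci in 8 libraries, deposited by the authors. Not given in the sources used here are the program behind FPKM, the choice of loci and strandedness. Between libraries, small RNA genes took 29.1 to 39.0% of summed FPKM, with the highest share in Neo library 1. Sums ran from 683834 to 808072, and those of protein-coding genes alone from 417587 to 444162. A common-sum scaling therefore shifts all genes of a library alike. How far small RNA accounts for its effect was not tested.

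A filter kept the 10874 genes that reached FPKM 1 in 2 libraries or more. These were tested by limma-trend (limma 3.58.1, R 4.3.3) on log2(FPKM + 1), in one model of the 4 groups with no other term, 4 residual and 3.29 prior degrees of freedom, and Benjamini-Hochberg adjustment within a comparison. Read counts are not used here, so no count model was run. Depth was estimated from steps in low FPKM of 194 to 210 genes with a single transcript, and the fit to whole steps was weak (mean cosine 0.168 to 0.231), so the precision by depth is uncertain.

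The 5 genes, the gene lists and the motifs were chosen with earlier results of these data known. Named were the 5 genes, for each list in each comparison up to 4 called genes with the largest change (or, where fewer than 2 were called, the 2 with the highest FPKM), and the 5 genes most like Pomc and 3 most like each of the others. Members of a list named for more than 1 comparison may be described once, and some genes that this rule picks are counted but not reported here. Coordinates of the loci are those deposited with the values, on mm10. Strand and gene type come from GENCODE M21, with 12129 loci matched by identifier and 9829 of them also by start and end. Promoters come from RefSeq on GRCm38.p6. Alternatives were a pseudocount of 0.1, no filter, median-ratio and common-sum scaling, protein-coding loci only, a fit of the groups compared alone, limma without its trend, a block for replicate number, and each library left out. A crossed block was added after seeing the data. Python 3.11.15, pandas 2.3.3, NumPy 2.4.6 and matplotlib 3.10.9 were used.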

Additional observations from a re-analysis of the deposited data

Results flagged for a closer look

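Between the 18 h and 3 h EGF groups, compared directly, 3 of the 5 genes differed, all higher at 18 h. Of all 10874 genes tested 17.7% were higher and 33.7% were called in all. These groups differ in time in culture as well as in time with EGF. The comparison is therefore not a test of a difference in response to EGF. Scg2 was higher at 18 h than at 3 h by 1.07 on the log2 scale (limma adjusted p = 1.66e-05), with 265 and 263 FPKM at 18 h and 121 and 129.7 FPKM at 3 h. Chgb was higher by 0.56 (limma adjusted p = 0.000494), with 1367 and 1391 FPKM at 18 h and 904 and 969 FPKM at 3 h. Pcsk1n was higher by 0.14 (limma adjusted p = 0.0332), with 24.4 and 23.8 FPKM at 18 h and 21.8 and 21.9 FPKM at 3 h, and its call was lost in 7 of 16 alternatives, with adjusted p of 0.0203 to 0.209. Against water Pcsk1n passed at neither time (limma adjusted p = 0.138 at 3 h and 0.342 at 18 h). Both times share the water libraries, and no water library is labelled 18 h.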

How the results depend on the processing

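No estimate that passed the test changed sign under any alternative. The increases of Scg2 and Chgb at 18 h, against water and against 3 h, passed in all 16 alternatives. With a common sum the calls of Pcsk1n in the EGFR line against the Neo line (-0.12), Scg5 at 3 h (-0.0771) and at 18 h (-0.11), and Pcsk1n at 18 h against 3 h (0.0907) were lost. With only the groups compared in the fit Pcsk1n in the EGFR line against the Neo line kept its estimate of -0.20 and lost its call (limma adjusted p = 0.0740, over the alternatives 0.0149 to 0.167). Scg2 in that comparison passed with median-ratio scaling (-0.14). Pomc at 3 h, at -0.20, passed with a pseudocount of 0.1, with the replicate block, with protein-coding loci only and with no variance trend. Leaving out 1 library gave -0.25 to -0.16 for Pomc at 3 h, -0.17 to -0.15 for Scg5 at 3 h, -0.16 to -0.14 for Scg5 at 18 h, -0.25 to -0.15 for Pcsk1n in the EGFR line against the Neo line and 0.12 to 0.15 for Pcsk1n at 18 h against 3 h. The causes were not tested, but a library less also leaves 3 residual degrees of freedom.

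Over all genes, the EGFR line against the Neo line gave 338 increases and 315 decreases. These were 135 and 158 with only the groups compared, and 183 and 199 with the replicate block. The decreases were 103 with a common sum, and the increases were 530 with protein-coding loci only. A common sum also gave 440 decreases at 3 h, against 2142, 705 at 18 h, against 2030, and 863 increases at 18 h against 3 h, against 1922. Leaving out 1 library gave 22 to 381 increases and 63 to 308 decreases for the EGFR line against the Neo line, 616 to 1297 and 808 to 2299 at 3 h, 847 to 1439 and 927 to 2171 at 18 h, and 1056 to 1896 and 817 to 1749 at 18 h against 3 h. Same-numbered libraries did not deviate together in all groups (r = -0.17 to 0.31, highest between Neo water and 18 h of EGF). These coefficients cannot show whether the numbers pair the libraries. The block changed no call of the 5 genes other than that of Pomc at 3 h (limma adjusted p = 0.0449, over the alternatives 0.0102 to 0.358). With the numbers of the EGFR water and 3 h groups crossed, added after seeing the data, the block gave 284 increases and 321 decreases for the EGFR line against the Neo line, 1354 and 2139 at 3 h, 1459 and 2064 at 18 h, and 1944 and 1807 at 18 h against 3 h. The depth estimate is rough, so its limit on precision is not known, and 2 libraries a group leave small differences such as that of Pomc at 3 h with an interval of -0.35 to -0.05.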

Other observations

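Of 16 tested genes of the processing and granin lists that have a promoter in the RefSeq table, 3 held TGACGTCA in the 250 bases before the start site: Scg2, Chgb and Pcsk1, the last at 78 bases. Of the promoters of all tested genes 2.88% held it. The promoters were looked at because Scg2 and Chgb rose, and the motif was chosen with earlier results known. The count therefore carries no test of an excess in these lists. Pcsk1 was at 0.16 at 18 h of EGF against water (limma adjusted p = 0.0158, kept in 11 of 16 alternatives) and at -0.12 at 3 h (limma adjusted p = 0.0387, kept in 6 of 16). Among the genes of these lists searched and without the element Nucb2 was at 0.41, Scg3 at 0.34, Cpd at 0.22 and Atrn at 0.21 at 18 h. Vgf, at 1.66 at 18 h, was not searched, as it had no window of that length in the RefSeq table. The same holds for Cpe and Qpct.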
